A study of Drosophila melanogaster with 2 samples.

Results

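The insulin, TOR and energy sensing genes of the indirect flight muscle were followed in control and *bs* KD flies. The group was chosen by name and holds 33 genes, each matched to a FlyBase identifier, of 13931 genes in the table. It covers the insulin receptor and the kinases behind it, the transcription factor FoxO, secreted proteins that bind insulin-like peptides, the TOR complexes with their inhibitors and outputs, AMPK, Myc and the activin-like ligands. Flies of the control genotype 1151/+ came from a cross of 1151-Gal4 to w1118, and those of 1151>bs[RNAi KK108659] from a cross of the same driver to the RNAi line. The driver is on from the myoblast stage, and the RNAi targets the *bs-RA* and *bs-RC* transcripts of the SRF ortholog *bs*. All flies were females aged 3 days and reared at 29°C. Each genotype gave 1 library from the pooled flight muscles of 4 females, so no difference below has a replicate check, no test was possible, and each interval covers counting error only.

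In insects as in mammals, insulin-like peptides bind a receptor tyrosine kinase that recruits PI3K through adaptor proteins, and PI3K in turn activates the kinase Akt. Akt keeps FoxO out of the nucleus and relieves the inhibition of the GTPase Rheb by the TSC complex. Rheb then activates TORC1, which promotes translation through S6 kinase and through inhibition of the eIF4E-binding protein Thor, whereas AMPK senses a low energy charge and opposes TORC1. In fly muscle this network is known for its control of fiber growth and of protein quality during aging.

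The libraries held 20955053 estimated reads in control muscle and 19767477 in *bs* KD. The targeted gene *bs* stood at 2.75 TPM (transcript abundance scaled so that each library sums to 1000000) in control muscle and 1.80 TPM in *bs* KD. The ratio was 0.656, with a 95% counting interval of 0.503 to 0.852. This is a total over all *bs* transcripts, including *bs-RB*, which the RNAi does not target. The qPCR of the paper, on *bs-RA/RC* only, found a larger reduction in the flight muscles. The tissue label was checked against 8 markers of flight muscle, and all 8 were detected in the libraries, with a summed level of 67795 TPM in control muscle and 47553 TPM in *bs* KD. The flight muscle actin *Act88F* had 33116 and 7471 TPM, and the other 7 markers together 34680 and 40081 TPM. These 7 went both ways. *salm* (16.8 and 6.31 TPM) and *Mhc* (6295 and 4993 TPM) were lower in *bs* KD, whereas *fln*, *TpnC4*, *up*, *Mf* and *Mlp84B* were higher. *Mlp84B* was scarce and close to the detection limit of 1 TPM in the control, with 1.12 TPM on 48.0 reads there and 3.59 TPM in *bs* KD. Of the 2 jump muscle markers, *Act79B* had 18.9 and 19.5 TPM and *TpnC41C* 1.96 and 21.3 TPM. Markers of other cells were also read. None of the 5 ovary markers that were matched reached 1 TPM. A single marker did so among 7 for neurons (*elav*) and among 7 for hemocytes (*Ppn*), both picked once their values were known.

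On the log2 scale used here, which adds 1 TPM to both values, the largest differences among the 33 genes were in *Sdr*, *daw*, *Thor* and *foxo*. *Sdr*, a secreted decoy of the insulin receptor, was 12.5-fold lower in *bs* KD, and *foxo* was 3.09-fold lower. *Thor* was 3.60-fold higher and *daw*, an activin-like ligand, 8.21-fold higher. The TOR kinase, its partners *rictor* and *Lst8*, and the 3 AMPK subunits differed by far less, with log2 changes between −0.13 and 0.09. Adding 1 TPM understates the change of genes with a low level: in TPM alone, the scarce *Myc* was 3.64-fold lower. With bulk muscle RNA, fewer cells of a type and less RNA per cell cannot be told apart.

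Of the 33 genes, 30 reached 1 TPM in at least one library and were counted as detected. *InR*, *chrb* and *Ilp6* did not. Among the 30 detected genes, 4 were higher by 2-fold or more, that is, by 1 or more on the log2 scale (*Rheb*, *Thor*, *REPTOR-BP* and *daw*, 13.3%). Over all 6384 detected genes this share was 9.38%. Another 3 were lower by that size (*chico*, *foxo* and *Sdr*, 10%), against 6.05% over all detected genes. At 1.5-fold the counts were 5 higher (16.7%, against 21.3% of all detected genes) and 7 lower (23.3%, against 15.1%). *daw*, counted as higher, reached 1 TPM in *bs* KD only. *Myc*, among the 7 lower at 1.5-fold, reached it in the control only. The detection limit thus fixed the direction of both, here and in the counts by interval below. Among the 15 members with at least 10 TPM in one of the libraries, 3 were higher and 3 lower by 2-fold or more, 20% each, against 15.7% and 7.2% of all 2348 genes at that level. The median log2 change was −0.08 for the 30 genes and 0.07 for all detected genes. The counting interval of the ratio excluded equal levels for 20 of the 30 genes, 8 higher (26.7%) and 12 lower (40%), and included equal levels for 10. Over the 6338 detected genes with reads in both libraries, it excluded equal levels for 38.9% as higher and 30.4% as lower.

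**Figure D1:**
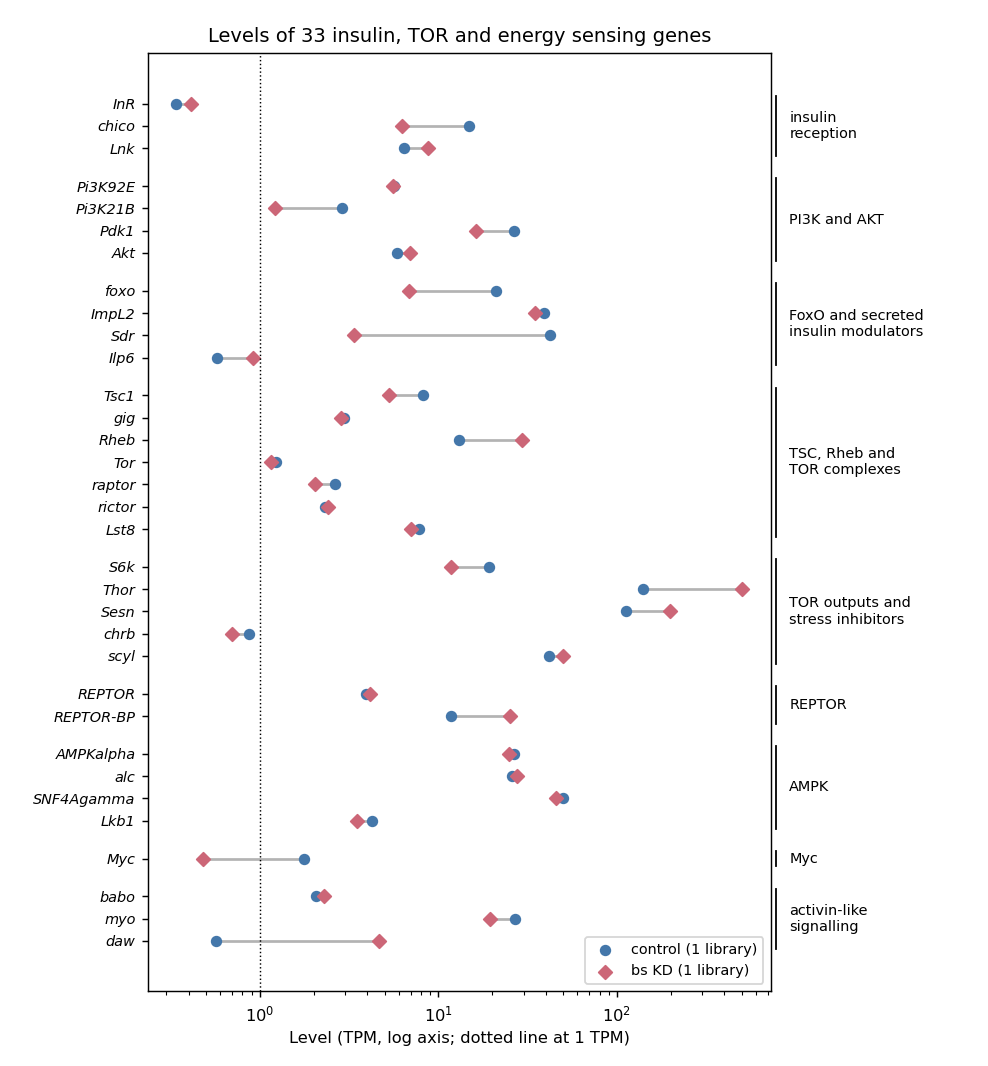
Level of each of the 33 genes in TPM (log axis) in the control library (circles) and the *bs* KD library (diamonds), grouped by role, with a dotted line at 1 TPM. *Thor* and *Sesn* were the most abundant in both libraries, and the widest gaps were those of *Sdr* (42.3 against 3.37 TPM) and *daw* (0.569 against 4.67 TPM).

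The median level of the 33 genes in the control was 7.80 TPM, against 0.480 TPM over all 13931 genes of the table. In the control, 4 of the 33 genes lay under 1 TPM, 14 from 1 to 10 TPM, 13 from 10 to 100 TPM and 2 above that. Over all genes these numbers were 7955, 3965, 1549 and 462. *Thor*, the eIF4E-binding protein, ranked 385th of all genes in the control, and *Sesn*, the fly sestrin, ranked 431st. The 33 genes summed to 671 TPM in control muscle and 1063 TPM in *bs* KD. *Thor* went from 140 to 503.5 TPM and *Sesn* from 112 to 197.5 TPM, whereas the other 31 genes together summed to 419 TPM in the control and to the lower value of 362 TPM in *bs* KD.

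Insulin reception was led by a scarce receptor message. *InR* (FBgn0283499), the single insulin receptor gene of the fly, had 0.342 TPM in control muscle and 0.414 TPM in *bs* KD, on 61.4 and 77.1 estimated reads. The interval of its ratio, 0.854 to 1.72, included equal levels. The adaptors were more abundant than the receptor. *chico* (FBgn0024248; chromosome arm 2L, 10242512 to 10247078, minus strand, Release 6) encodes the insulin receptor substrate. It had 14.9 TPM in control muscle and 6.25 TPM in *bs* KD, which is 2.38-fold lower (interval 2.10 to 2.71, log2 change −1.13). *Lnk*, an SH2B-family adaptor that acts beside Chico, went the other way, from 6.38 to 8.80 TPM (log2 change 0.41, ratio 1.38, interval 1.19 to 1.59). As a result *chico* stood at 2.33 times the level of *Lnk* in control muscle and at 0.710 times in *bs* KD.

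The PI3K and Akt genes were moderately expressed, and none differed by 2-fold on the scale used. *Pi3K92E*, the catalytic subunit of PI3K, had 5.63 TPM in control muscle and 5.58 TPM in *bs* KD. Its regulatory partner *Pi3K21B* had 2.90 and 1.22 TPM, a ratio of 0.421 (interval 0.326 to 0.542), and because the level is low its log2 change after adding 1 TPM was −0.81. The regulatory subunit was thus at 0.516 times the level of the catalytic one in control muscle and at 0.219 times in *bs* KD. *Pdk1*, the kinase that phosphorylates Akt and S6 kinase, had 26.4 and 16.3 TPM (log2 change −0.66, ratio interval 0.575 to 0.668). *Akt* itself had 5.84 and 6.93 TPM (log2 change 0.21). In this group, then, *Pi3K21B* and *Pdk1* were lower in *bs* KD, *Akt* slightly higher, and *Pi3K92E* nearly equal.

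**Figure D2:**
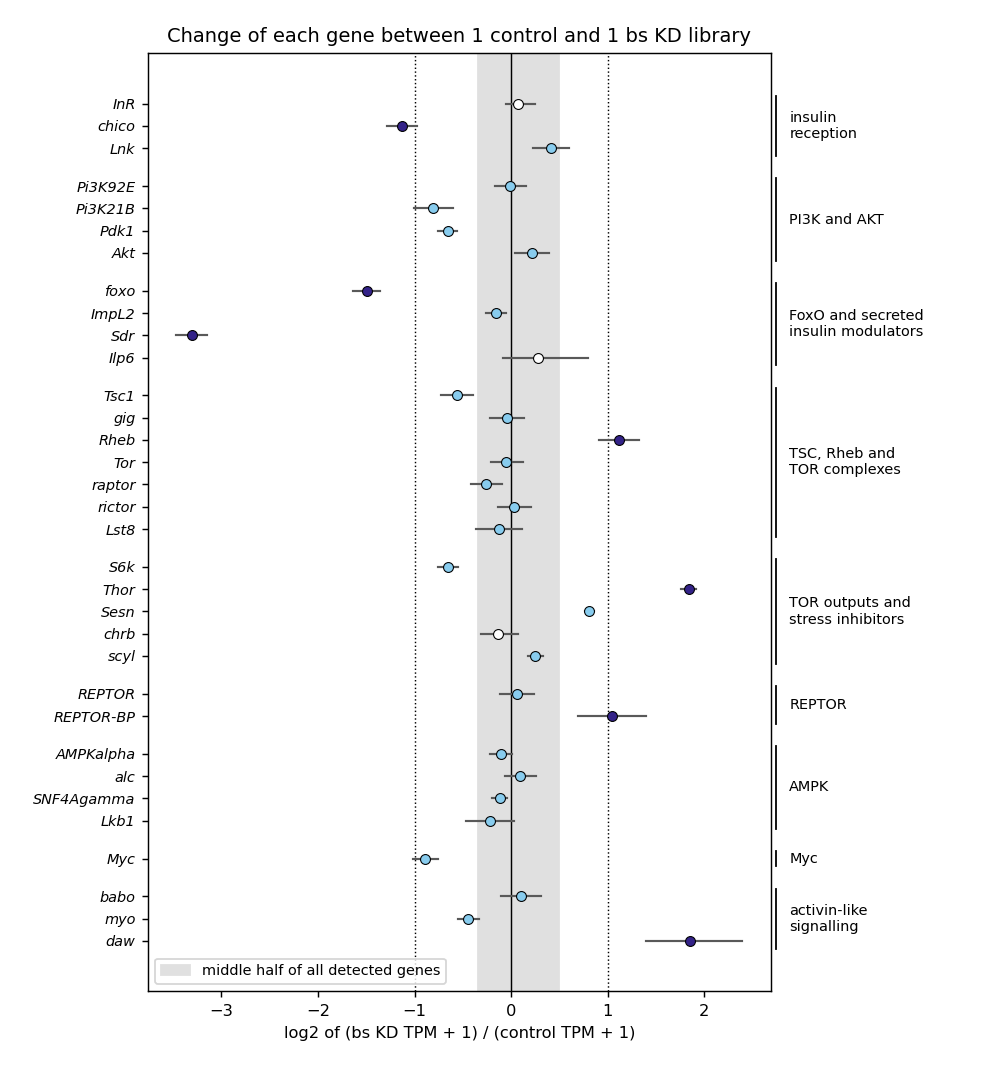
Log2 change of each gene, *bs* KD over control with 1 TPM added, grouped by role; bars are 95% counting intervals. The gray band is the middle 50% of all detected genes (−0.35 to 0.50), dotted lines mark 2-fold, dark points pass it, and open points are the 3 genes under 1 TPM in both libraries.

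*foxo* (FBgn0038197; chromosome arm 3R, 14056945 to 14087978, plus strand), the FoxO transcription factor that insulin signaling restrains, had 21.0 TPM in control muscle and 6.81 TPM in *bs* KD. These levels rest on 1343 and 441 reads and give a 3.09-fold lower level (interval 2.77 to 3.45, log2 change −1.5). Genes known in flies to respond to FoxO went both ways where detected, and *Lip4* and *tobi* stayed under 1 TPM in both libraries. *Thor*, whose transcription FoxO can activate, was higher. *Atg8a*, an autophagy gene, had 162 and 341 TPM, *Pepck1*, an enzyme of gluconeogenesis, 20.9 and 11.4 TPM, and *bmm*, a triglyceride lipase, 13.1 and 8.83 TPM. The level of *foxo* and the level of *Thor* therefore lay on opposite sides of the control. Protein activity and localization were not measured. *Thor* (656 bp) and *Atg8a* (1112 bp) are shorter than *Pepck1* (2387 bp) and *bmm* (2202 bp), and shorter messages were more often higher throughout the table (below).

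The secreted modulators differed from each other. *Sdr* (FBgn0038279; chromosome arm 3R, 14918628 to 14923083, plus strand) encodes a protein related to the extracellular portion of the insulin receptor that binds insulin-like peptides in flies. It had 42.3 TPM on 2611 reads in control muscle and 3.37 TPM on 212 reads in *bs* KD, or 7.97% of the control level (12.5-fold lower, interval 10.9 to 14.5, log2 change −3.31). *ImpL2*, an immunoglobulin-family protein that also binds insulin-like peptides, had 39.0 and 34.8 TPM (log2 change −0.16, ratio interval 0.830 to 0.959). Both genes had a similar level in the control, where *ImpL2* stood at 0.924 times the level of *Sdr*, whereas in *bs* KD it stood at 10.3 times that level.

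*Sdr* is known from surface glia as well as other tissues, so markers of other cells were set beside it. Of 6 glial markers 4 were detected, and their log2 changes ran from −0.69 (*moody*) to 2.91 (*nrv2*), with a median of −0.08. The defining glial gene *repo* was listed at 0.496 TPM in control muscle and 0.296 TPM in *bs* KD, and the astrocyte marker *alrm* at 0.190 TPM and at 0. Of 6 tracheal markers 5 were detected, all 5 had a lower value in *bs* KD, and 3 were lower by 2-fold or more. The tracheal list summed to 38.6 TPM in control muscle and 8.81 TPM in *bs* KD. The genes lower by 2-fold or more were *verm* (14.0 and 0.740 TPM), *serp* (8.22 and 1.32 TPM) and *Gasp* (12.9 and 4.37 TPM). *trh* had 1.88 and 1.21 TPM. *btl* had 1.45 and 1.12 TPM, with a ratio interval (0.565 to 1.06) that included equal levels. Of 9 fat body markers 6 were detected and 3 of these were lower by 2-fold or more, with sums of 27.4 and 23.8 TPM. *Lsp2* and *Fbp1*, storage protein genes of the fat body, were at 2.34 and 1.96 TPM in control muscle and at 0.388 and 0.222 TPM in *bs* KD. *FASN1*, the third of the lower genes, had 4.68 and 0.559 TPM. All 3 reached 1 TPM in the control only, as did *verm* of the tracheal list, so the detection limit fixed their direction. The yolk protein genes of the same list differed among themselves, with 4.35 and 9.31 TPM for *Yp1*, 13.2 and 10.4 TPM for *Yp2*, and 0.399 and 1.76 TPM for *Yp3*. *Yp3* reached 1 TPM in *bs* KD only. The part of glial, tracheal and fat body RNA in the *Sdr* difference was not tested.

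Of the insulin-like peptides, *Ilp6*, which the fat body is known to secrete, had 0.578 TPM on 19.0 reads in control muscle and 0.914 TPM on 26.8 reads in *bs* KD, too few to tell the levels apart (ratio interval 0.847 to 3.01). It lies within the span of *Raf*, on the opposite strand. The 7 other peptide genes of the list (*Ilp1* to *Ilp5*, *Ilp7* and *Ilp8*) stayed under 1 TPM in both libraries, and of the marker peptides of the insulin-producing cells, *Ilp2* and *Ilp3* were listed at 0 in both and *Ilp5* at 0 in the control and 0.807 TPM, on 5.58 reads, in *bs* KD.

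Of the 7 genes of the TSC, Rheb and TOR complexes, the ratio interval excluded equal levels for *Rheb*, *Tsc1* and *raptor*. *Tor* (listed as *mTor* in the annotation used) had 1.24 and 1.16 TPM. *raptor*, which defines TORC1, had 2.63 and 2.04 TPM (log2 change −0.26, ratio interval 0.657 to 0.914). *rictor*, which defines TORC2, had 2.33 and 2.40 TPM, and *Lst8*, a subunit of both complexes, 7.80 and 7.06 TPM. *Lst8* was the most abundant of these subunits, at 6.28 times the level of *Tor* in control muscle and 6.07 times in *bs* KD. The interval of the ratio between genotypes included equal levels for *Tor*, *rictor* and *Lst8*.

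*Rheb* (FBgn0041191; chromosome arm 3R, 5568921 to 5570491, plus strand), the GTPase that switches TORC1 on, had 13.1 TPM on 259 reads in control muscle and 29.5 TPM on 603 reads in *bs* KD. This is 2.25-fold higher (interval 1.95 to 2.62, log2 change 1.11). The TSC genes that keep Rheb inactive did not follow it. *Tsc1* had 8.25 and 5.27 TPM (log2 change −0.56, ratio interval 0.558 to 0.729), and *gig*, the fly TSC2, 2.98 and 2.86 TPM. The *Rheb* message was accordingly at 1.58 times the level of *Tsc1* in control muscle and at 5.59 times in *bs* KD. This ratio sets a short message (1092 bp) against a long one (3797 bp), and the change differed with length throughout the table (below). With the median change of genes of similar length subtracted, *Rheb* stood at 0.83 and *Tsc1* at −0.41.

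The outputs of TORC1 moved apart. *S6k*, the kinase of ribosomal protein S6, had 19.1 TPM in control muscle and 11.8 TPM in *bs* KD (log2 change −0.65, ratio interval 0.570 to 0.667). *Thor* (FBgn0261560; chromosome arm 2L, 3478434 to 3479612, plus strand), the translational repressor that TORC1 inactivates, had 140 TPM on 1665 reads and 503.5 TPM on 6032 reads. Its level was 3.60-fold higher in *bs* KD (interval 3.41 to 3.80, log2 change 1.84). The *S6k* message is long (4786 bp) and that of *Thor* short (656 bp), and the change differed with length (below). With the median change of genes of similar length subtracted, *S6k* stood at −0.46 and *Thor* at 1.41. The target of Thor, the cap-binding factor *eIF4E1*, was also at a higher value, 136 against 80.6 TPM (ratio 1.69, interval 1.58 to 1.79). Per transcript, there were 1.74 *Thor* messages for each *eIF4E1* message in the control (interval 1.62 to 1.86) and 3.71 in *bs* KD (interval 3.54 to 3.88). *RpS6*, the substrate of S6 kinase, had 1008 and 1020 TPM.

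Among inhibitors of TORC1 that respond to stress, *Sesn* was the most abundant. *Sesn*, which in flies restrains TORC1 and is known to protect muscle during aging, had 6089 reads in control muscle and 10674 in *bs* KD, a 1.76-fold higher level (interval 1.70 to 1.81, log2 change 0.81). *scyl*, a fly relative of mammalian REDD1, had 41.6 and 49.6 TPM (log2 change 0.25, ratio interval 1.13 to 1.26). Its paralog *chrb* stayed under 1 TPM, at 0.870 and 0.699 TPM. Both detected inhibitors thus had a higher value in *bs* KD, although neither by 2-fold.

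REPTOR and REPTOR-BP are bZIP transcription factors that become active when TORC1 is inhibited in flies. *REPTOR* had 3.93 and 4.13 TPM and its ratio interval (0.905 to 1.22) included equal levels. *REPTOR-BP* had 11.7 TPM on 94.9 reads in control muscle and 25.2 TPM on 201 reads in *bs* KD, 2.15-fold higher (interval 1.67 to 2.77, log2 change 1.04). The partner therefore went from 2.99 to 6.10 times the level of *REPTOR*. Here too a short message (445 bp) is set against a long one (4686 bp). With the median change of genes of similar length subtracted, *REPTOR-BP* stood at 0.70 and *REPTOR* at 0.25. *Myc*, the growth-promoting transcription factor, was scarce, with 1.76 TPM on 236 reads in control muscle and 0.484 TPM on 67.3 reads in *bs* KD. Its ratio was 0.275 (interval 0.206 to 0.362), and its log2 change with 1 TPM added was −0.90. The Myc partner *Max* had 12.3 and 13.8 TPM, and the antagonist *Mnt* 6.44 and 4.02 TPM.

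AMPK was the most even group. The catalytic subunit *AMPKalpha* had 26.7 TPM in control muscle and 24.7 TPM in *bs* KD, the beta subunit *alc* 25.9 and 27.7 TPM, and the gamma subunit *SNF4Agamma* 49.9 and 45.8 TPM. Only for *SNF4Agamma* did the ratio interval exclude equal levels (0.868 to 0.972). The gamma subunit stood at 1.87 times the level of the catalytic subunit in control muscle and 1.85 times in *bs* KD. The upstream kinase *Lkb1* had 4.27 and 3.51 TPM, with an interval from 0.659 to 1.02. The 4 genes had log2 changes between −0.22 and 0.09.

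Of the activin-like genes, *daw* (FBgn0031461; chromosome arm 2L, 2805261 to 2812376, plus strand) had 0.569 TPM on 26.8 reads in control muscle and 4.67 TPM on 222 reads in *bs* KD. Its ratio was 8.21 with a wide interval of 5.49 to 12.7, and its log2 change was 1.85. In flies, *daw* is known as a gene that FoxO represses in muscle, and its ligand signals through the type I receptor Babo. *myo* (myoglianin), a relative of mammalian myostatin that muscle secretes, was far more abundant but lower in *bs* KD, with 27.0 and 19.6 TPM (log2 change −0.44, ratio interval 0.669 to 0.787). The receptor *babo* had 2.07 and 2.28 TPM. Of 9 gut markers 6 were detected, all 6 had a higher value in *bs* KD, and the list summed to 3.71 TPM in control muscle and 13.8 TPM in *bs* KD. Of these 6, only *alphaTry* reached 1 TPM in the control (1.62 and 3.68 TPM). *betaTry*, *Jon65Aiii*, *Mal-A1*, *Amy-p* and *CG12374* reached it in *bs* KD only, so the detection limit fixed their direction. *daw* also reached 1 TPM in *bs* KD only. Of the undetected markers, *Jon99Ci* (0.457 and 0.378 TPM) and *Npc2f* had lower values in *bs* KD, and *LManVI* was at 0 in both. The part of gut RNA in the *daw* difference was not tested. *myo* exceeded *daw* by 47.3-fold in control muscle and 4.19-fold in *bs* KD.

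Other genes of the same pathways, 65 in all, were read in the same way. Of these, 49 were detected, with a median log2 change of 0.02, 2 higher by 2-fold or more (4.08%, against 9.38% of all detected genes) and 4 lower (8.16%, against 6.05%). The higher ones were *Atg8a* and *Sec13* (4.50 to 12.4 TPM), a coat protein that is also part of the GATOR2 complex upstream of TORC1. The lower ones were *trbl* (19.3 to 6.91 TPM), a pseudokinase that binds Akt in flies, *mav* (12.0 to 5.26 TPM), a ligand of the TGF-beta family, *wit* (2.44 to 0.668 TPM), a type II receptor, and *ACC* (7.86 to 2.45 TPM), the acetyl-CoA carboxylase that AMPK phosphorylates in mammals. *wit* and *ACC* lie outside the naming rule and were picked with their values known. *wit* reached 1 TPM in the control only, so the detection limit fixed its direction. The Ragulator genes, which anchor TORC1 at the lysosome, had log2 changes from 0.10 (*Lamtor1*) to 0.87 (*Lamtor5*). The intervals of *Lamtor2*, *Lamtor3*, *Lamtor4* and *Lamtor5* excluded equal levels, as they did for 38.9% of all such genes as higher. The Ragulator messages are short, from 444 bp (*Lamtor4*) to 621 bp (*Lamtor5*) in the control, and short messages were more often higher throughout the table (below). With the median change of genes of similar length subtracted, *Lamtor1* to *Lamtor5* stood at −0.32, 0.35, 0.26, 0.52 and 0.44. The Ragulator genes were also picked with their values known.

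The change differed with transcript length. The length of each message was taken from the reads per TPM, because the deposited lengths were too small for genes with several transcripts, by up to 9.51 times among the 33 genes. Among the detected members, 5 were shorter than 2000 bp and 4 of them had a higher value in *bs* KD, with a median log2 change of 1.04. The other 25 were longer, and 17 of them had a lower value, with a median of −0.12. Of all detected genes, 64.5% of the shorter and 41.4% of the longer ones had a higher value. *REPTOR-BP* (445 bp in the control), *Thor* (656 bp) and *Rheb* (1092 bp) were on the short side, whereas *chico* (3050 bp), *Sdr* (3407 bp) and *foxo* (3518 bp) were on the long side. *daw* (2594 bp) and *Sesn* (2989 bp) were higher although long. The value of 2000 bp was chosen after the data were seen.

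The same trend ran through the whole table. Of all detected genes under 2000 bp, 13.3% were higher by 2-fold or more, against 3.69% of longer genes, while 6.24% and 5.77% were lower by that size. Genes around 377 bp had a median log2 change of 0.34, those around 681 bp of 0.43, the highest of the 20 classes, and those around 6941 bp of −0.24. Across genes, which are not independent replicates, Spearman's rho between length and log2 change was −0.40 over the 30 detected members, −0.63 over the 49 other genes of the pathways and −0.30 over all 6384. These points share 2 libraries, so the coefficients describe those libraries only. With the median of each length class subtracted, *Thor* stood at 1.41, *daw* at 1.93, *Sesn* at 0.84, *chico* at −1.10, *foxo* at −1.34 and *Sdr* at −3.15. *Rheb* and *REPTOR-BP* then stood at 0.83 and 0.70 and were no longer higher by 2-fold.

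**Figure D3:**
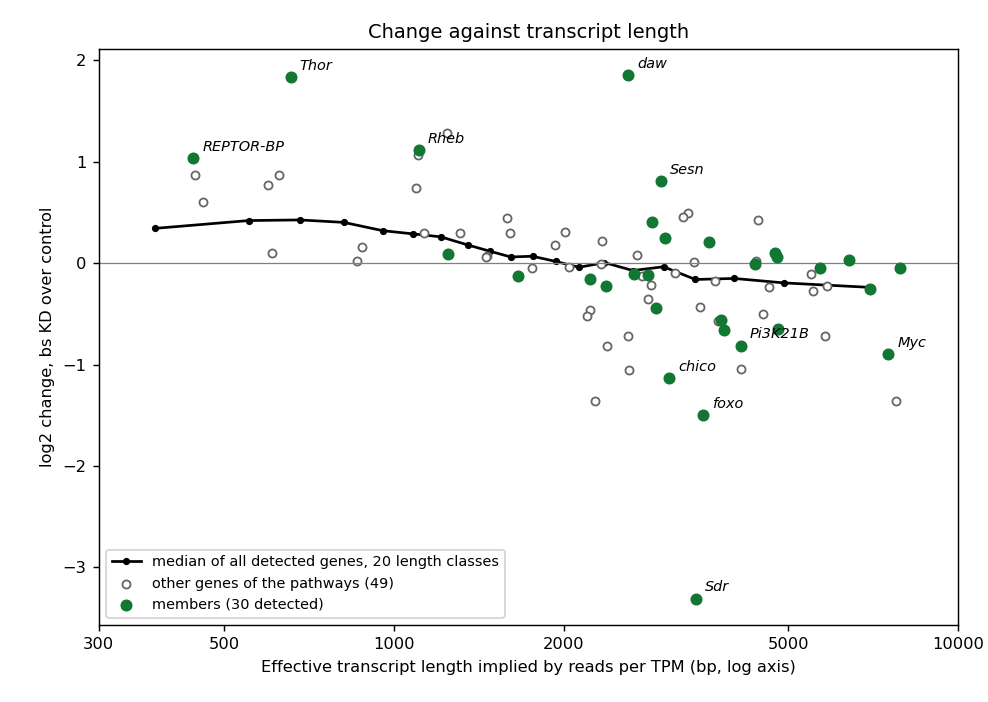
Log2 change (*bs* KD over control, 1 TPM added) against the effective transcript length implied by reads per TPM (bp, log axis) for the 30 detected members (filled), 49 other genes of the pathways (open) and the medians of all detected genes in 20 length classes (line). The line starts at 0.34 around 377 bp, peaks at 0.43 around 681 bp and ends at −0.24 around 6941 bp, with *daw* at 1.85 and *Sdr* at −3.31 far from it.

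The messages themselves kept their length. The implied length in *bs* KD was within 10% of that in the control for 32 of the 33 genes, and the exception was *Ilp6* (1809 against 1605 bp), which had few reads. *Pi3K21B* came closest to that limit among the detected genes, with 4280 and 3948 bp. The implied length was 656 bp in both libraries for *Thor*, 3407 and 3448 bp for *Sdr*, and 3518 and 3547 bp for *foxo*. Single isoforms were not measured.

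Of the 33 genes, 16 overlap another annotated gene in the genome, and 7 overlap one that reached 1 TPM. *chico* contains an antisense RNA gene, *asRNA:CR44995*, which was not analysed here. These overlaps are of whole gene spans, introns included, and shared exons were not looked for. Use of strand in the counting was not given in the sources used here. Whether reads from a partner entered the value of such a gene was not tested. No annotated gene overlaps *Thor*, *Rheb*, *REPTOR-BP*, *foxo*, *Sdr* or *daw*.

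**Figure D4:**
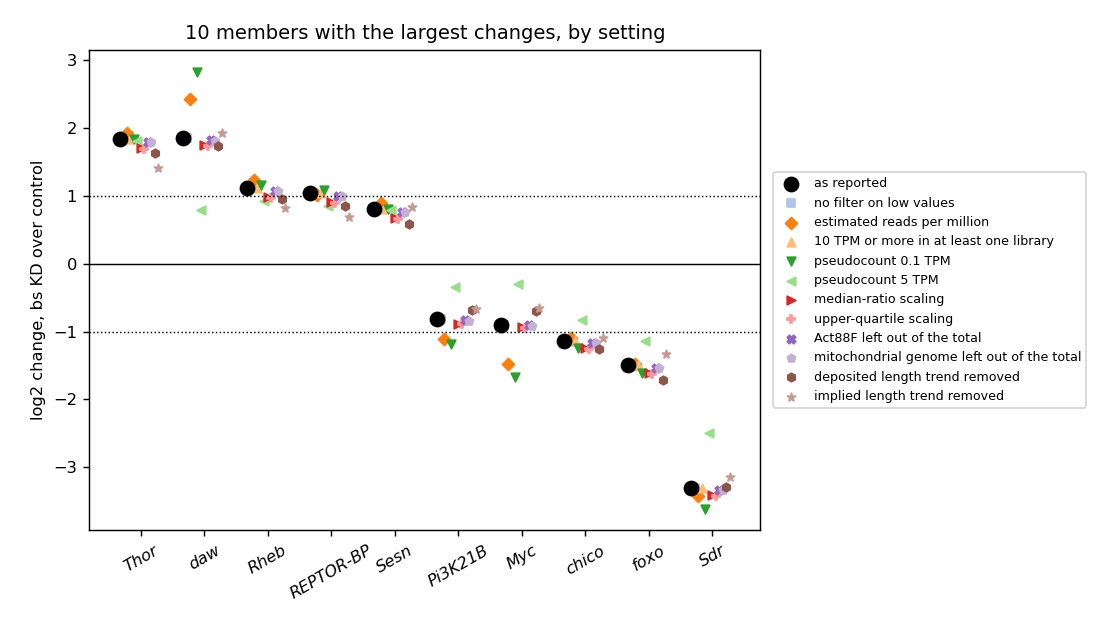
Log2 change of the 10 members with the largest changes (y axis) as reported (black) and under each alternative setting, with dotted lines at 2-fold. *Thor*, *foxo* and *Sdr* stayed beyond 2-fold under each of them, whereas *Rheb* and *REPTOR-BP* lay on both sides of the line.

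*Thor*, *foxo* and *Sdr* stayed beyond 2-fold under each of the 11 alternatives that give their value, *chico* under 10 of 11 and *daw* under 9 of 10. *Rheb* passed under 6 of 11 and *REPTOR-BP* under 5 of 11. Median-ratio scaling moves all *bs* KD values by −0.13 on the log2 scale, and with it *Thor* and *daw* were the members higher by 2-fold or more. Over all detected genes the shares were then 7.28% higher and 7.02% lower, in place of 9.38% and 6.05%. The members closest to the 2-fold limit were *REPTOR-BP* (1.04), *Rheb* (1.11) and *chico* (−1.13) beyond it, and *Sesn* (0.81), *Pi3K21B* (−0.81) and *Myc* (−0.90) short of it. *Pi3K21B* and *Myc* were lower by more than 2-fold in TPM alone, with ratios of 0.421 and 0.275.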

How the data were processed

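The authors quantified the single-end reads of 100 bp with Salmon, against the annotated transcripts of *D. melanogaster* release 6.21, and deposited a TPM value, an estimated count of reads and a mean transcript length per gene and library. Its version was not given in the sources used here. The authors' table also holds a DESeq2 comparison (base mean, log2 fold change, error, statistic and p-values), which was not used. Each TPM column sums to 1000000.

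Symbols came from the BDGP6.54 annotation of Release 6 (13843 of 13931 genes). A gene counted as detected when either library reached 1 TPM. Changes were log2 ratios of TPM plus 1. Exact 95% intervals of ratios were computed with SciPy 1.17.1 from estimated reads rounded to whole numbers and cover counting error only. Effective length was reads per TPM, divided by the median of reads per TPM and bp over detected genes with 1 annotated transcript; 99.8% of 2082 such genes in the control lay within 1% of that median. *Med* and *nos* of the lists were not matched.

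The members and lists were chosen with earlier results of these data known. All 33 members are accounted for. The naming rule took the members at 2-fold among those with 10 TPM or more in either library, the detected members with the largest and the smallest change of each role, and the other pathway genes at 2-fold with 10 TPM or more. Genes named beside these were picked with their values known. The computations were checked on simulated counts. No sequence is shown, since none was given with the reference used here.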

Additional observations from a re-analysis of the deposited data

How the results depend on the processing

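Alternatives covered the filter, the pseudocount, the scaling, estimated reads in place of TPM, the length trend and the size of change, 12 in all; removal of the implied length trend was added after the data were seen. The number of members higher by 2-fold or more, 4 as reported, was 1 with 5 TPM added, and 2 with median-ratio scaling, upper-quartile scaling, the deposited length trend removed or the implied length trend removed. The number lower, 3 as reported, was 5 with 0.1 TPM added and with estimated reads scaled to a common total, and 7 at 1.5-fold. The shares of all genes moved as well, from 9.38% higher and 6.05% lower to 4.10% and 2.13% with 5 TPM added, 14.2% and 10.7% with 0.1 TPM added, 7.0% and 7.24% with upper-quartile scaling, 7.27% and 7.38% with the deposited and 6.22% and 7.19% with the implied length trend removed, 10.1% and 6.48% with estimated reads scaled to a common total, and 21.3% and 15.1% at 1.5-fold. With 0.1 TPM added, and likewise with estimated reads scaled to a common total, *Pi3K21B* and *Myc* joined the lower genes. The causes were not tested, except that the settings themselves add to low levels, shift all values or admit smaller changes. The median log2 change of the members moved by less than the counting spread of 0.16 under each alternative that applies to it. Its sign still changed, from −0.08 as reported to 0.03 with estimated reads scaled to a common total, where the median of all genes was 0.14. For the 18 members named in full, 147 values stayed within their counting interval, 43 moved beyond it and 0 of the changes of 2-fold changed sign. *REPTOR* and *alc*, both near 0, changed sign under 3 of 10 and 4 of 11 alternatives. No paired analysis was possible because each genotype has 1 library, and for the same reason no library could be left out. Depth limits *InR*, *Ilp6*, *chrb*, *daw* and *Myc* most.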
